A study of Mus musculus with 9 samples.

Results

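The older LINE-1 copies are the repeat copies annotated as class LINE and family L1 whose name does not start with L1Md. This is the prefix of the mouse LINE-1 families that include the young ones. The table of repeat RNA levels listed 2858 such copies among 38385 (7.45%), under 111 names. Of these names, 69 had 10 or more listed copies and are called families here, with 2708 copies, and the other 42 names held 150 copies. They were taken by a rule on name and annotation that uses no measured value, apart from the fact that every listed copy has a value above 0 in all 9 libraries. Copies that are silent in some library are thus not covered, which limits every comparison between lines and days. The choice was made with earlier results of these data known. The L1Md families, with 2966 copies, were left out and are given beside them where they differ.

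RNA-seq of polyadenylated RNA was available for 3 lines of J1 mouse embryonic stem cells (ESCs). WT is the parental line, 1KO lacks a functional Dnmt1 gene (Dnmt1-/-), and 1KO+1CI is 1KO with a transgene, driven by the CAG promoter, for DNMT1 with an inactive catalytic site. The 1KO+1CI library comes from a selected clone, so the effect of the transgene and that of the clone cannot be told apart. Each line was sampled on day 0 (ESCs grown with LIF on fibroblast feeder cells), day 2 and day 4 of differentiation, in which feeders and LIF were removed, embryoid bodies formed and the cells were then grown attached towards epiblast-like cells. Each of the 9 conditions has 1 library, so no difference between 2 conditions has a replicate check. No test was run, and a fit that pools the lines over days was not made.

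LINE-1 elements copy themselves through an RNA intermediate, and a full element carries a promoter and reading frames for an RNA-binding protein and for an endonuclease with reverse transcriptase. Young mouse elements of the L1Md families can still be transcribed from their own promoter, which DNA methylation and histone H3K9 methylation silence. Older copies are mostly truncated and mutated, and their sequences often lie inside transcripts of other genes. The names give a rough order of age: L1_Mus, L1_Mm, L1_Mur, L1VL and Lx are rodent families, L1M names (L1MA to L1ME) date back to early mammals, and HAL1 elements are relatives of LINE-1 that carry only the first reading frame. Maintenance methylation by DNMT1 keeps many repeats methylated in ESCs, and the comparison of the lines addresses whether it, or DNMT1 protein without its activity, changes RNA from repeats.

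The values are FPKM, the number of reads scaled to the length of a copy and to the counted reads of the library. The table gives no genome position or sequence of a copy, so RNA started in a copy and RNA of a gene that contains it cannot be told apart. Differences are given as log2(FPKM + 0.1) in one library minus that in another. From the spacing of low values, whole reads and lengths were recovered for 2784 of the 2858 copies (97.4%). If 1 step is 1 read, the libraries hold about 20300000 to 28000000 reads, and the deepest is 1KO on day 0. Dnmt1 itself was at 74.0, 80.4 and 48.5 FPKM in WT on days 0, 2 and 4, at 13.7, 17.4 and 12.3 FPKM in 1KO and at 315, 129 and 158 FPKM in 1KO+1CI. All 8 listed ESC markers were measured, with summed levels of 3424 to 3562 FPKM on day 0. The summed level of 10 feeder fibroblast genes on day 0 was 117, 240 and 291 FPKM in the WT, 1KO and 1KO+1CI libraries, and it was 15.9 to 37.6 FPKM on days 2 and 4.

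Older LINE-1 copies were short and had few reads. Their recovered length had a median of 420 bases (quartiles 284 and 687 bases), and 8 of the 2784 copies were over 2000 bases, against 915 of 1405 copies of the young family L1Md_T. Among these 2784 copies the median was 7.56 reads, averaged over the libraries, and 432 had a mean of 20 reads or more. The search tried at most 60 reads in the lowest library, so the read limits used below can miss copies with more reads. The median level was 22.0 FPKM over the 74 copies without recovered reads and 0.745 FPKM over those with reads. Of all 2858 members, 808 were under 1 FPKM in every library and 457 were at or above 1 FPKM in every library. Rodent names made up 1802 copies, of which 1003 carried an Lx name and 514 an L1_Mus or L1_Mm name, and the other names made up 1056 copies.

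Levels per length differed between name groups in every library. Rodent-named copies had medians of 0.541, 0.440 and 0.564 FPKM on day 0 in WT, 1KO and 1KO+1CI. Copies with the other names had 1.25, 0.935 and 1.14 FPKM, and their medians were above those of the rodent names in all 9 libraries. Within the rodent names the L1VL copies were lowest, with medians of 0.229 to 0.346 FPKM over the libraries. L1ME copies, among the oldest by name, had medians of 1.38 to 1.94 FPKM. The copies with other names were also shorter, with a median of 265 bases against 601 bases, and since a listed copy has at least 1 read in every library, a short copy cannot be listed at as low an FPKM as a long one. The part of this limit in the difference between groups was not tested.

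**Figure D1:**
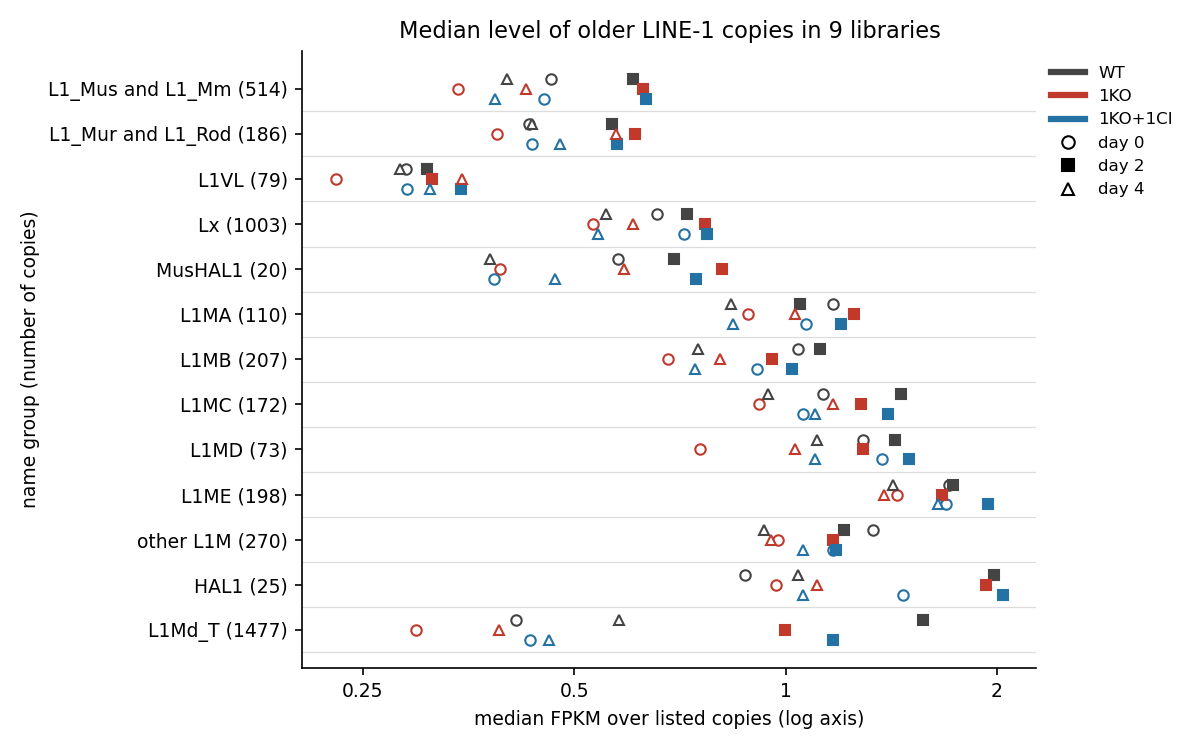
Median FPKM (log axis) over the listed copies of each name group, with the number of copies in parentheses. Each symbol is 1 library, coloured by line and shaped by day, with L1Md_T as the bottom row. The groups with rodent names sit below 1 FPKM in every library, and most groups have their highest medians on day 2.

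A few copies made up much of the summed FPKM, which is scaled to length and is not a share of reads. L1MEi copy 21 was at 588, 914 and 842 FPKM in WT, 1KO and 1KO+1CI on day 0, at 925, 990 and 938 FPKM on day 2 and at 844, 806 and 890 FPKM on day 4. It made up 11.0% of the FPKM summed over all older LINE-1 copies. Its lowest value was WT on day 0, and the other 8 libraries lay between 806 and 990 FPKM. L1MEg copy 4 and HAL1ME copy 23, next in mean level, made up 5.12% and 4.46%. L1MEg copy 4 was at 300, 340 and 343 FPKM in WT over the 3 days, at 491, 430 and 374 in 1KO and at 353, 519 and 445 in 1KO+1CI, so WT was the lowest line on each day. HAL1ME copy 23 was at 239 FPKM in WT on day 0, and the other libraries lay between 295 and 413 FPKM. The 74 copies whose reads could not be recovered, with a median level of 22.0 FPKM, held 49.8% of the summed FPKM, so these few copies weigh about as much in a mean over copies as the other 2784 together.

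In families with such a copy, 1 copy set the family level. L1MEg, the family with the highest mean in WT on day 0 (19.8 FPKM over 20 copies), had 79.5% of its FPKM in copy 4. Lx2B had 91.7% in copy 204 and Lx7 had 69.9% in copy 1557. The other families with high means on day 0 in WT were L1MEd (6.55 FPKM) and L1MB2 (6.44 FPKM). The lowest were L1VL1 at 0.325, L1VL4 at 0.479 and L1_Mm at 0.542 FPKM.

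On day 0, the median older LINE-1 copy was lower in 1KO than in WT, and so was the median repeat copy, while sums over all repeat copies ran the other way. The median difference was -0.27 over the 2858 copies and -0.18 over all 38385 copies. It was -0.33 over L1Md_T and -0.42 over the other L1Md copies. The L1Md families were not alike in their mean level. L1Md_A, L1Md_Gf and L1Md_T differed by -0.53, -0.46 and -0.35, and L1Md_F, L1Md_F2 and L1Md_F3 by -0.07, -0.10 and 0.02. Over 2-fold lower were 633 older copies (22.1%, background 19% of all copies), and over 2-fold higher were 258 (9.03%, background 11.4%). The group medians ranged from -0.61 for L1MD to 0.03 for L1ME. In bulk RNA, fewer cells of a type and less RNA per cell cannot be told apart.

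For older copies, this difference was seen in copies with few reads. Over the 432 copies with a mean of 20 reads or more the median was -0.03, against -0.04 over the 8491 such copies of the whole table, and 31 were over 2-fold higher and 50 over 2-fold lower (7.18% and 11.6%, background 12.0% and 7.41%). L1Md_T and other L1Md copies with 20 reads or more had medians of -0.35 and -0.51. Over the 74 older copies without recovered reads the median was 0.15, and the ratio of the mean FPKM of all older copies was 0.03 on the log2 scale. Scaled by the median ratio of repeat copies, the medians were -0.14 for older copies and -0.03 for all copies. Summed over the 2784 copies with recovered reads, they took 1552 RPM (reads per 1000000 counted reads) in WT (95% Poisson interval 1535 to 1569, counting error only), 1335 in 1KO (1322 to 1349) and 1526 in 1KO+1CI (1510 to 1542). 1KO was the lowest of the day 0 libraries by this sum. Over all 36692 copies with recovered reads it was above WT, with 23755 RPM in WT, 26980 in 1KO and then 26148 in 1KO+1CI. The 1KO library of day 0 is also the deepest, and 5 of the 10 measured feeder genes were over 2-fold higher in it than in WT (background 5.96% of genes). The part of depth and of feeder RNA in the difference was not tested.

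**Figure D2:**
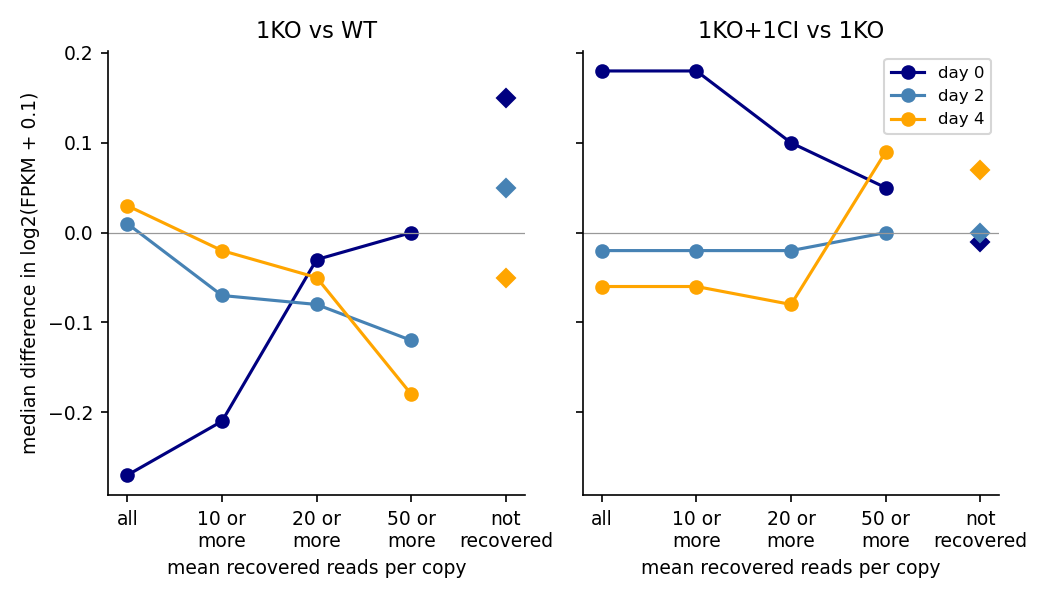
Median difference in log2(FPKM + 0.1) over older LINE-1 copies for 1KO against WT (left) and 1KO+1CI against 1KO (right), for all copies and for those with a mean of at least 10, 20 or 50 recovered reads. Diamonds are the 74 copies whose reads were not recovered. For 1KO against WT on day 0 the median goes from -0.27 over all copies to -0.03 at 20 reads and 0.00 at 50 reads.

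Among the 69 families on day 0, 9 were lower in 1KO than in WT by over 0.5 (13.0%, background 5.66% of 371 families of any kind) and 2 were higher (2.90%, background 6.20%). Lx3_Mus, a rodent family of 28 copies, had the lowest difference, with 0.749 FPKM in WT and 0.384 in 1KO (-0.81). HAL1 was at 5.56 and 3.32 FPKM (-0.73), L1MD1 at 2.68 and 1.58 (-0.72), L1MC at 2.44 and 1.47 (-0.70) and L1_Mus4 at 0.896 and 0.523 (-0.68). Without its highest copy, HAL1 differed by 0.02, while Lx3_Mus, L1MD1 and L1MC stayed at -0.75, -0.75 and -0.80. The families above the threshold were L1MC3 at 2.03 FPKM in WT and 3.23 in 1KO (0.65) and L1MEg at 19.8 and 29.6 (0.58). Without their highest copy these differed by 0.15 and 0.08, so each higher value rests on 1 copy. L1VL4 was next, at 0.479 and 0.614 FPKM (0.30). The families with most listed copies stayed within the threshold, with differences of -0.18 for Lx8 (211 copies), -0.09 for L1_Mus1 (171), -0.26 for L1_Mus3 (165), -0.29 for Lx9 (115) and -0.00 for Lx7 (87).

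On days 2 and 4, the median listed older LINE-1 copy was at about the same level in 1KO as in WT. The median L1Md_T copy was lower, as on day 0. Copies without reads in WT are not listed, so a copy silent in WT and transcribed in 1KO could not be seen. The median difference was 0.01 on day 2 and 0.03 on day 4, against -0.07 and -0.01 over all copies and -0.59 and -0.41 over L1Md_T. On day 2, 399 older copies were over 2-fold higher and 385 over 2-fold lower (14.0% and 13.5%, background 13.9% for each). On day 4, 469 were higher and 353 lower (16.4% and 12.4%, background 17.2% and 12.2%). Of the 1477 L1Md_T copies, 5 were over 2-fold higher and 224 lower on day 2, and 7 higher and 188 lower on day 4. The L1Md_T copies are longer and had more reads, with a median of 36.0 reads a copy. Whether older and young copies differ in their response was not tested. Marker lists also differed between the lines on these days. The summed level of the ESC markers was 2936, 2277 and 2009 FPKM in WT, 1KO and 1KO+1CI on day 2 and 2195, 1825 and 1475 FPKM on day 4. Single markers did not all follow the sum. On day 4, Nanog and Esrrb were over 2-fold higher in 1KO than in WT (1.59 and 1.24) and Zfp42 was lower (-1.18), with a background of 4.95% and 2.74% of genes. The summed level of 8 primitive endoderm genes was already different on day 0, at 32.7, 46.6 and 53.1 FPKM in WT, 1KO and 1KO+1CI. It was 17.2, 20 and 35.1 FPKM on day 2 and 26.0, 38.1 and 67.7 FPKM on day 4. Of these 8, 3 were over 2-fold higher in 1KO than in WT and 1 lower on day 2 (background 5.57% and 3.11%), and 3 and 0 on day 4. Col4a1 alone was at 14.4, 14.4 and 22.5 FPKM on day 2 and 19.3, 24.5 and 46.7 on day 4. The part of cells of these types in the differences was not tested.

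On day 2 no older family was higher in 1KO than in WT by over 0.5 (0%, background 5.39%) and 3 were lower (4.35%, background 2.70%). These were L1MC2, at 3.84 FPKM in WT and 2.44 in 1KO (-0.63), L1MC, at 2.28 and 1.49 (-0.58), and L1MC5a, at 2.88 and 2.00 (-0.50), with 10 to 15 copies each. The highest differences were those of Lx7, at 2.85 and 3.93 FPKM (0.45), Lx, at 1.95 and 2.64 (0.42), and Lx3C, at 0.683 and 0.906 (0.36). On day 4 Lx7 was the 1 family over the threshold (1.45%, background 6.20%) and Lx2B the 1 below it (1.45%, background 1.35%). Lx7 was at 4.20 FPKM in WT and 7.02 in 1KO (0.73), and at 0.42 without copy 1557. Lx2B was at 7.35 and 4.78 FPKM (-0.61), and at 0.29 without copy 204. Next to them were Lx, at 2.17 and 2.98 FPKM (0.44), and L1ME4a, at 3.38 and 4.38 (0.37), on the higher side, and L1ME3, at 2.46 and 1.82 (-0.41), and Lx10, at 3.44 and 2.64 (-0.37), on the lower side.

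**Figure D3:**
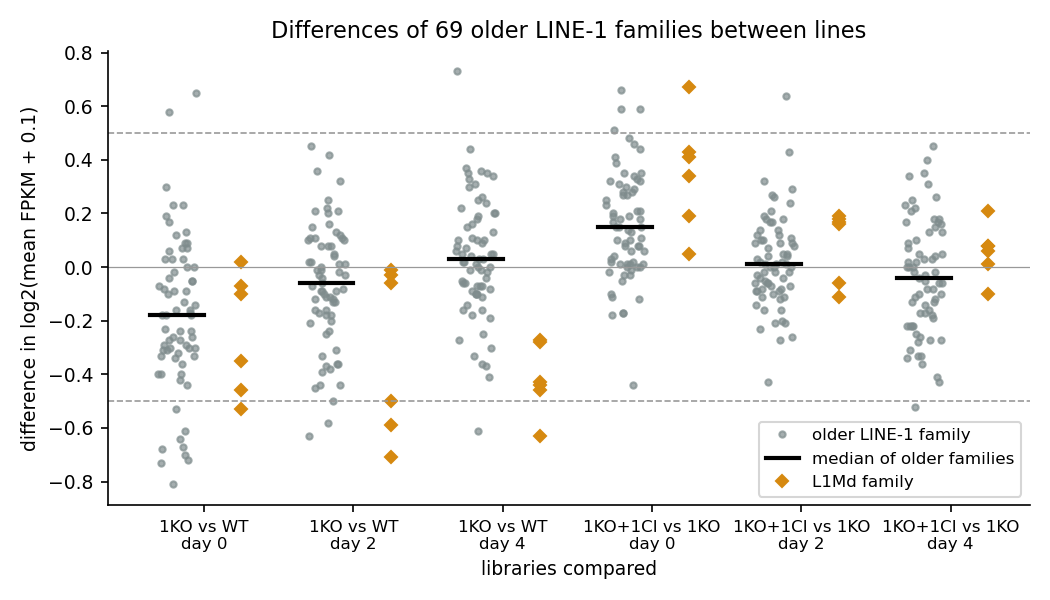
Difference in log2(mean FPKM + 0.1) of the 69 older LINE-1 families (grey points) in 6 comparisons between single libraries, with their median (black bar), the L1Md families (orange diamonds) and the thresholds of 0.5 and -0.5 (dashed). The points are spread sideways at random. The older families range from -0.81 to 0.65 for 1KO against WT on day 0, and their medians on days 2 and 4 lie within 0.1 of 0.

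The line with the transgene for inactive DNMT1 was set against 1KO on the same days. On day 0 older copies were on balance higher in 1KO+1CI than in 1KO, with a median of 0.18 against 0.17 over all copies. L1Md_T and the other L1Md copies had medians of 0.40 and 0.53. Over 2-fold higher were 508 older copies (17.8%, background 16.0%) and over 2-fold lower 207 (7.24%, background 9.96%). This comparison uses the same 1KO library as the day 0 comparison with WT. Over older copies with 20 reads or more the median was 0.10, against 0.12 over all such copies, 0.46 over those of L1Md_T and 0.65 over those of the other L1Md families. For older copies, 1KO+1CI set against WT gave -0.06 on day 0. The feeder genes differed less between these libraries, and 0 of 10 were over 2-fold apart (background 1.54% of genes higher and 1.75% lower).

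In 1KO+1CI, 4 families were higher than in 1KO on day 0 by over 0.5 (5.80%, background 2.70%) and none was lower (0%, background 2.16%). L1MA7 was at 1.07 FPKM in 1KO and 1.74 in 1KO+1CI (0.66), HAL1 at 3.32 and 5.05 (0.59), L1MA6 at 2.30 and 3.50 (0.59) and L1MC5a at 1.66 and 2.40 (0.51). Without its highest copy HAL1 differed by 0.07, L1MC5a by 0.04 and L1MA7 by 0.35, whereas L1MA6 differed by 0.57. The lowest differences were those of L1MEg, at 29.6 and 21.8 FPKM (-0.44), L1MB4, at 0.945 and 0.823 (-0.18), and L1MC2, at 1.85 and 1.63 (-0.17).

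On days 2 and 4 the medians of 1KO+1CI against 1KO were -0.02 and -0.06, against -0.02 and 0.01 over all copies and 0.20 and 0.18 over L1Md_T. On day 2, 341 older copies were over 2-fold higher and 330 lower (11.9% and 11.5%, background 11.0% and 10.4%). On day 4, 318 were higher and 418 lower (11.1% and 14.6%, background 10.9% and 13.7%). Of the 8 primitive endoderm genes, 5 were over 2-fold higher in 1KO+1CI than in 1KO on day 2 and 3 on day 4. Of the 10 feeder genes 1 and 4 were (background 1.80% of genes on day 2 and 2.62% on day 4). The part of these cell types was not tested. L1MA6 was the family over the threshold on day 2 (1.45%, background 0.270%), at 4.01 FPKM in 1KO and 6.30 in 1KO+1CI (0.64, and 0.61 without its highest copy), and none was lower (0%, background 0.270%). L1MC, at 1.49 and 2.04 FPKM (0.43), and L1MC5a, at 2.00 and 2.53 (0.32), were next, and L1MEc was lowest, at 2.42 and 1.76 (-0.43), before L1MC4 at 2.05 and 1.69 (-0.27) and L1VL4 at 0.675 and 0.546 (-0.26). On day 4 no family was higher by over 0.5 (0%, background 1.62%) and Lx3C was lower (1.45%, background 1.08%), at 1.14 and 0.764 FPKM (-0.52). L1MD1 at 2.31 and 1.69 (-0.43) and Lx4B at 0.792 and 0.572 (-0.41) followed, and the highest were L1M3 at 1.70 and 2.36 (0.45), Lx10 at 2.64 and 3.51 (0.40) and L1MC5 at 1.96 and 2.53 (0.35).

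L1MA6, a family of 21 copies, had a higher mean in 1KO+1CI than in 1KO on all 3 days. Its mean level was 2.63, 2.30 and 3.50 FPKM in WT, 1KO and 1KO+1CI on day 0, 3.70, 4.01 and 6.30 on day 2, and 5.20, 5.77 and 6.55 on day 4. Within each line it was higher on day 4 than on day 0, by 0.96, 1.29 and 0.88. The median over its copies turned on day 4, with -0.30 for 1KO+1CI against 1KO, and with -0.31 for day 4 against day 0 in 1KO+1CI (0.27 in WT and 0.54 in 1KO).

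Between days, the median older LINE-1 copy was slightly higher on day 2 than on day 0 on the FPKM scale, by much less than the median L1Md_T copy. The median difference of day 2 against day 0 for older copies was 0.12 in WT, and 0.37 and 0.15 in 1KO and 1KO+1CI. All copies gave 0.18, 0.34 and 0.16, and L1Md_T gave 1.65, 1.42 and 1.19. Scaling by the median ratio of genes gave 0.14, 0.36 and 0.10 for older copies. Scaling by the median ratio of repeat copies gave -0.05, 0.03 and -0.03. That scaling puts the median repeat copy near 0 by design, so it shows only how older copies changed relative to repeats as a whole. As deposited, older copies with 20 reads or more gave 0.32, 0.33 and 0.29 (0.44, 0.36 and 0.41 over all such copies). Over 2-fold higher on day 2 were 561 older copies in WT (19.6%, background 22.2%), 757 in 1KO (26.5%, background 25.1%) and 584 in 1KO+1CI (20.4%, background 21.0%). In WT, 1267 of the 1477 L1Md_T copies (85.8%) were over 2-fold higher. By length, older copies of 1000 bases or more had medians of 0.22, 0.51 and 0.28 in the 3 lines and those under 300 bases 0.10, 0.31 and 0.14, whereas the 1380 L1Md_T copies of 1000 bases or more had 1.67, 1.43 and 1.21. Cells were grown on feeder cells on day 0, and feeders were removed before differentiation. Feeder genes were still measured, at lower levels, on days 2 and 4. The part of feeder RNA in the day differences was not tested.

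Day 4 against day 2 had medians of -0.30, -0.22 and -0.29 for older copies in WT, 1KO and 1KO+1CI, against -0.34, -0.18 and -0.28 for all copies and -1.28, -1.09 and -1.12 for L1Md_T. Scaled by genes, older copies had -0.31, -0.22 and -0.27. Scaled by repeat copies, which puts the median repeat copy near 0, they had -0.01, 0.04 and -0.01. Over 2-fold lower on day 4 were 702 (24.6%, background 27.0%), 665 (23.3%, background 23.7%) and 730 older copies (25.5%, background 25.6%). The sums over the 2784 copies with recovered reads were highest on day 2 in each line. They were 1552, 1918 and 1415 RPM in WT, 1335, 1824 and 1453 in 1KO and 1526, 1827 and 1393 in 1KO+1CI on days 0, 2 and 4. Over 1405 L1Md_T copies the sums were 1500, 5611 and 2081 in WT, 1106, 3618 and 1457 in 1KO and 1596, 4180 and 1719 in 1KO+1CI. Over all copies with recovered reads they were 23755, 33123 and 22442 in WT, 26980, 32332 and 35213 in 1KO and 26148, 33516 and 40274 in 1KO+1CI. In both mutant lines the sum over these copies was highest on day 4. The mean FPKM over all repeat copies, with or without recovered reads, was instead highest on day 2 in both. It was 7.87, 8.35 and 8.03 FPKM in 1KO and 7.85, 8.33 and 8.15 FPKM in 1KO+1CI on days 0, 2 and 4. On day 2 the 2784 older copies with recovered reads summed to slightly less for 1KO and 1KO+1CI than for the WT library. The 95% Poisson intervals were 1805 to 1842, 1808 to 1845 and, for WT, 1901 to 1936. These intervals hold counting error only and not the spread between cultures. The sums leave out 74 older copies that held 49.8% of the summed FPKM. With these included, the day 2 mean over all 2858 older copies was not lower for either mutant line. It was 2.97 FPKM for 1KO and 3.03 FPKM for 1KO+1CI, against a WT mean of 2.96 FPKM.

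**Figure D4:**
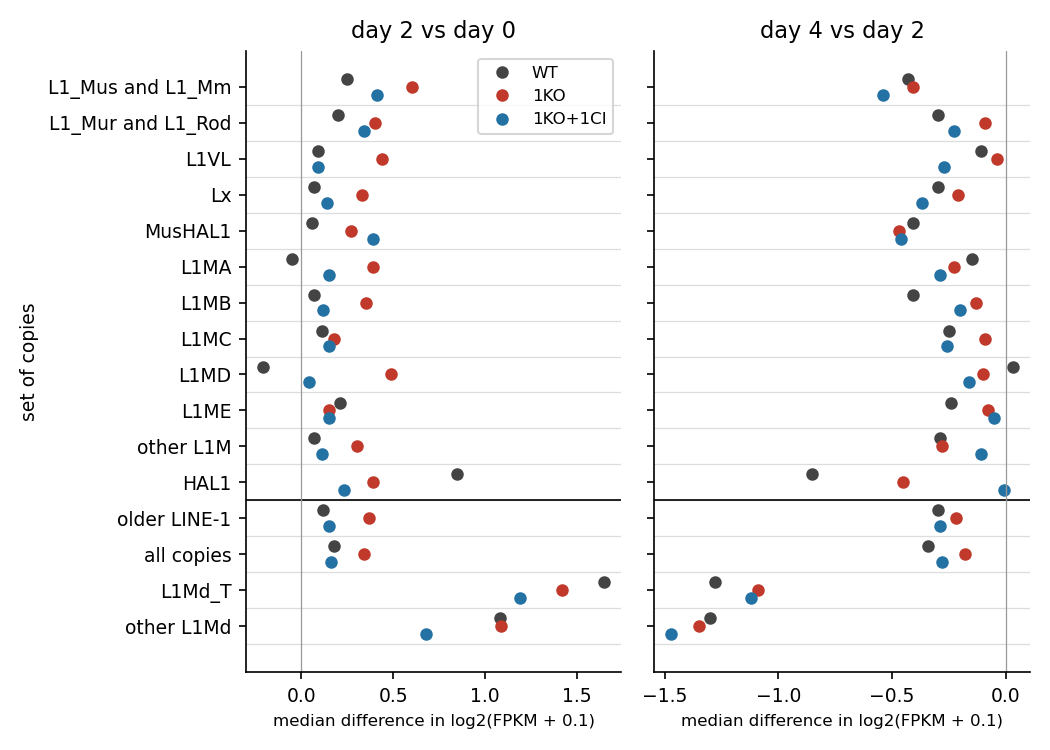
Median difference in log2(FPKM + 0.1) over copies for day 2 against day 0 (left) and day 4 against day 2 (right), 1 point per line, for the older LINE-1 name groups (above the black line) and for all older copies, all repeat copies, L1Md_T and the other L1Md families. Older copies as a whole lie at 0.12 to 0.37 on the left and -0.30 to -0.22 on the right, and L1Md_T lies at 1.19 to 1.65 and -1.28 to -1.09. Scaled by repeat copies, which puts the median repeat copy near 0, the older copies would lie at -0.05 to 0.03 and -0.01 to 0.04.

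The day 2 difference was not equal over the older families. L1_Mus and L1_Mm copies had medians of 0.25, 0.60 and 0.41 in WT, 1KO and 1KO+1CI, Lx copies 0.07, 0.33 and 0.14, and L1MD copies -0.21, 0.49 and 0.04. By family, 12 of 69 were higher by over 0.5 in WT (17.4%, background 18.1%), 14 in 1KO (20.3%, background 19.7%) and 8 in 1KO+1CI (11.6%, background 15.1%), and scaled by repeat copies there were 3, 3 and 4. In all 3 lines 45 families were above 0 and none was below 0 (207 and 24 of the 371 families of any kind). Those over 0.5 in all 3 lines were L1_Mm, Lx2B2 and L1_Mur1 (4.35% of 69, against 8.36% of the 371), all of them rodent families, and they are named here after their values were seen.

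L1_Mm, a family of 74 copies, had a mean of 0.542, 1.23 and 0.547 FPKM in WT on days 0, 2 and 4, 0.474, 0.918 and 0.502 in 1KO, and 0.598, 0.941 and 0.449 in 1KO+1CI. Its level was highest on day 2 in every line. Day 4 against day 0 gave 0.01 in WT, 0.07 in 1KO and a lower level, -0.35, in 1KO+1CI. Lx2B2 was at 1.88, 3.73 and 2.92 FPKM in WT, 2.12, 4.11 and 2.61 in 1KO and 2.21, 4.24 and 2.28 in 1KO+1CI. L1_Mur1 was at 0.556, 0.986 and 0.864 FPKM in WT, 0.570, 1.07 and 1.13 in 1KO and 0.644, 1.16 and 1.28 in 1KO+1CI, so that it stayed above its day 0 level on day 4. Without their highest copies, the day 2 differences of L1_Mm were 1.10, 0.91 and 0.66, those of Lx2B2 0.80, 0.96 and 0.76, and those of L1_Mur1 0.41, 0.74 and 0.66.

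Day 4 against day 2, 17 families were lower by over 0.5 in WT (24.6%, background 24.0%), 10 in 1KO (14.5%, background 18.9%) and 13 in 1KO+1CI (18.8%, background 21.0%), and scaled by repeat copies there were 3 in each line. HAL1, L1_Mm and Lx5b were lower by over 0.5 in all 3 lines (4.35% of 69, against 10.8% of the 371). L1_Mm differed by -1.04, -0.76 and -0.92 and HAL1 by -0.92, -0.87 and -0.78. Against day 0, L1MA6, L1MD, L1_Mur1 and Lx10 were higher on day 4 by over 0.5 in all 3 lines (5.80% of 69, against 1.89% of the 371), and no family was lower (0%, against 2.96% of the 371). Lx10 was at 2.07, 2.39 and 3.44 FPKM in WT on days 0, 2 and 4, at 1.40, 1.91 and 2.64 in 1KO and at 1.30, 2.22 and 3.51 in 1KO+1CI, and copy 570 held 40.7% of its FPKM. Without its highest copy, L1MA6 differed between days 4 and 0 by 0.78, 1.06 and 0.74, L1_Mur1 by 0.35, 1.05 and 1.06, L1MD by 0.33, 0.30 and -0.18 and Lx10 by -0.06, 0.47 and 0.60, so of these 4 families only L1MA6 stayed past 0.5 in all 3 lines. This still rests on part of the L1MA6 copies, since the median over copies was 0.27, 0.54 and -0.31. L1MA6 copy 165, which stays in, went from 7.98 to 18.8 FPKM in WT between days 0 and 4. It went from 4.95 to 18.2 in 1KO and from 9.95 to 22.8 in 1KO+1CI. HAL1 without its copy 146 differed between days 4 and 2 by -0.98, -0.26 and -0.37.

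The single copies with the largest differences between lines rested on few reads. By the rule for naming copies, 36 were taken, 3 higher and 3 lower in each of the 6 comparisons between lines. They had 1 to 5 reads in the lower library (median 1.00) and 10 to 59 in the higher one (median 15.0). They were picked by the size of the difference, and the intervals below do not allow for that choice. L1_Mur2 copy 393 was at 0.0940 FPKM in WT and 2.43 in 1KO on day 0, from 1 and 35 reads, a ratio of 25.7 with a 95% counting interval of 4.32 to 1045. L1M4 copy 143 was at 0.152 FPKM in WT and 5.74 in 1KO on day 4, from 1 and 41 reads (ratio 37.8, interval 6.42 to 1530), and at 7.66 FPKM in 1KO+1CI. Lx6 copy 425, with the most reads of the 36, was at 3.77 FPKM in WT and 0.369 in 1KO on day 2, from 59 and 5 reads (ratio 0.0980, interval 0.0307 to 0.242). It was also lower in 1KO on day 0 (2.42 and 0.278 FPKM) and on day 4 (1.26 and 0.0680 FPKM), and 1KO+1CI lay near 1KO, at 0.587, 0.655 and 0.0770 FPKM. L1_Mur2 copy 393 on day 2 was at 3.50 FPKM in 1KO, against 0.718 in WT and 1.09 in 1KO+1CI, so that the higher value in 1KO was seen on both days. On day 4 it was at 0.171 to 0.191 FPKM in all 3 lines.

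A further 100 copies had a mean of 50 recovered reads or more, and those named next were chosen among them after their values were seen. Their intervals do not allow for that choice. Of these 100, 8 were over 2-fold higher and 4 lower in 1KO than in WT on day 0 (background 21.1% and 4.04% of the 2993 such copies of any kind), 4 and 5 on day 2 (18.4% and 3.54%), and 4 and 15 on day 4 (20% and 7.05%). Against 1KO, 1KO+1CI had 6 higher and 3 lower on day 0 (4.11% and 15.3%), 2 and 2 on day 2 (0.869% and 0.635%), and 4 and 6 on day 4 (2.44% and 1.30%).

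Lx8 copy 1286, a fragment of 356 bases, was lower in both lines without active DNMT1 on every day. WT had 7.53, 27.3 and 15.7 FPKM on days 0, 2 and 4, 1KO had 0.905, 8.29 and 4.34, and 1KO+1CI had 0.827, 7.91 and 5.13. On day 0 the ratio of 1KO to WT was 0.120 (interval 0.0522 to 0.245, from 9 and 55 reads), and on day 2 it was 0.304 (0.226 to 0.403). The day 2 level was the highest of the 3 days in each line.

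L1ME4c copy 1, of 162 bases, had the opposite order. It was at 15.7, 9.68 and 7.70 FPKM in WT, 19.3, 28.9 and 52.5 in 1KO and 17.4, 26.4 and 74.5 in 1KO+1CI on days 0, 2 and 4. The lines were close on day 0, and on day 4 the ratio to WT was 6.81 in 1KO (interval 4.51 to 10.7) and 9.67 in 1KO+1CI (6.44 to 15.1).

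L1_Mus1 copy 1520, among the longer members at 1722 bases, was highest on day 2 in every line and low on day 4 in the mutant lines. It was at 3.33, 15.2 and 3.31 FPKM in WT, 4.80, 12.4 and 0.487 in 1KO and 3.98, 10.2 and 0.0290 in 1KO+1CI on days 0, 2 and 4. The day 4 reads were 119, 19 and 1, and the ratio of 1KO to WT was 0.147 (interval 0.0856 to 0.240). L1_Mus3 copy 2466 was likewise high on day 2, at 23.6, 21.9 and 14.7 FPKM in WT, 1KO and 1KO+1CI, and at 1.12, 0.565 and 1.05 FPKM on day 4, when the lines were close. On day 0 it was at 4.26 FPKM in WT and at 8.39 and 10.9 in 1KO and 1KO+1CI.

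L1_Mus2 copy 1630 was lower in 1KO than in both other lines on each day, at 5.31, 18.9 and 8.96 FPKM against 19.9, 28.8 and 23.3 in WT and 17.7, 26.0 and 14.5 in 1KO+1CI. On day 0 the ratio of 1KO to WT was 0.267 (interval 0.188 to 0.372) and that of 1KO+1CI to 1KO was 3.33 (2.39 to 4.72). Lx7 copy 1557, the highest copy of a rodent family by mean level and without recovered reads, was at 171, 139 and 264 FPKM in WT on days 0, 2 and 4, at 193, 236 and 472 in 1KO and at 218, 287 and 374 in 1KO+1CI. WT was the lowest line on each day, and all 3 lines were highest on day 4.

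**Figure D5:**
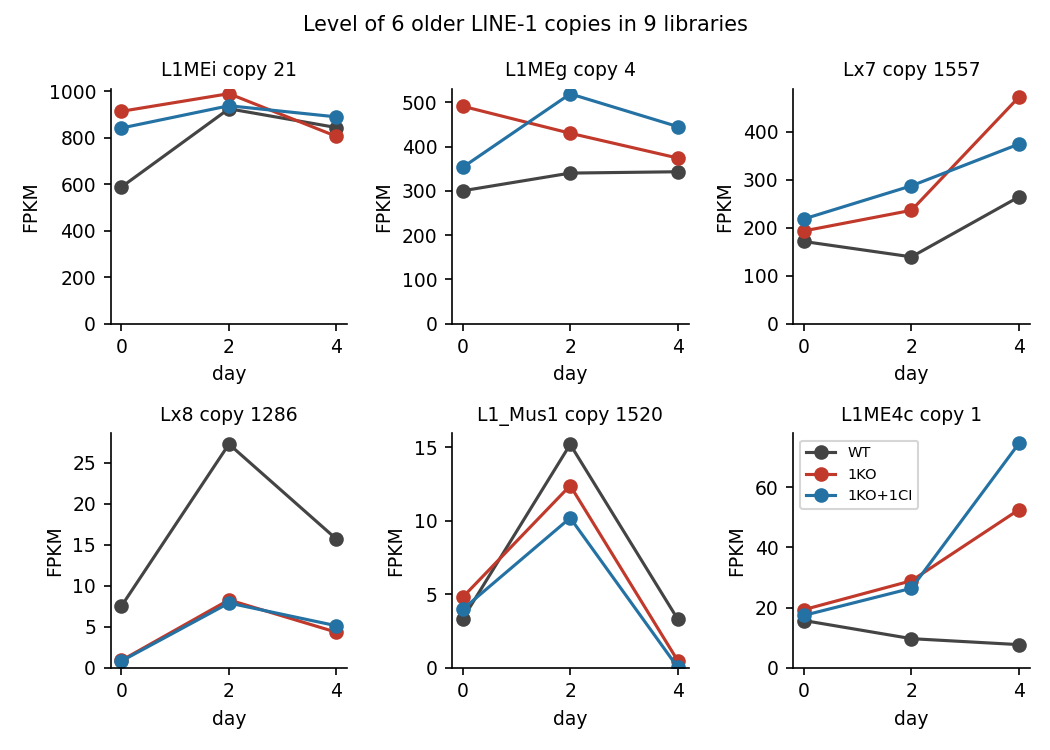
FPKM of 6 older LINE-1 copies by day in WT, 1KO and 1KO+1CI, 1 library a point, each axis from 0. The upper row shows copies of high mean level and the lower row copies with a mean of 50 recovered reads or more, where Lx8 copy 1286 lies below WT in both mutant lines on all days and L1ME4c copy 1 lies above it on days 2 and 4.

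Genes known to restrict LINE-1 were described from a list of 36 symbols, of which 34 were measured. Asz1 had no entry, and Fam208a is the former symbol of Tasor, which is among the 34. It holds DNA and histone methyltransferases and their partners, the HUSH complex, RNA-binding and nuclease restriction factors, Polycomb subunits and piRNA factors. In 1KO against WT on day 0, 4 were over 2-fold higher (background 5.96% of genes) and 0 lower (background 5.19%). Dnmt3l, the partner of the de novo methyltransferases, was at 41.3 FPKM in WT and 203 in 1KO (2.29). The others were Mael and Piwil2, factors of the piRNA pathway, at 3.52 and 9.50 FPKM (1.40) and at 2.47 and 6.25 (1.30), and Tex19.1, a germ cell factor that acts on LINE-1, at 20.3 and 50.9 (1.32). The lowest was Rnaseh2a, a subunit of RNase H2, at 68.9 and 49.2 FPKM (-0.48). The median of the list was 0.12, against -0.01 over all genes.

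On day 2, 1 of the 34 genes was over 2-fold higher in 1KO (background 5.57%) and 0 were lower (background 3.11%). Mael was at 2.57 FPKM in WT and 8.03 in 1KO (1.61), and the lowest was the antiviral factor Zc3hav1 at 4.83 and 2.44 (-0.96). On day 4, 1 was higher (background 4.95%) and 1 lower (background 2.74%). Mov10, a helicase that restricts LINE-1, was at 7.20 and 14.7 FPKM (1.02), and the de novo methyltransferase Dnmt3a was at 39.7 and 18.3 (-1.11). In 1KO+1CI against 1KO none of the 34 was over 2-fold apart on any day (background 1.54% higher and 1.75% lower on day 0, 1.80% and 1.38% on day 2, 2.62% and 2.14% on day 4), with list medians of -0.05, 0.02 and -0.06. The lowest were Trex1 on day 0 (4.87 and 3.00 FPKM, -0.68), Mov10 on day 2 (24.5 and 13.7, -0.83) and Dnmt3b on day 4 (328 and 226, -0.54). The highest were Atf7ip on day 0 (19.8 and 25.6 FPKM, 0.37), Tex19.1 on day 2 (40.4 and 53.5, 0.40) and Trex1 on day 4 (1.49 and 2.16, 0.51).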

How the data were processed

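Repeat copies and genes were analysed from the deposited FPKM values. For these the authors used Trim Galore for trimming, HISAT2 for mapping to mm10, SAMtools, and the HOMER script analyzeRepeats.pl for counting and for the FPKM scale. No tool versions, repeat annotation or strand setting, and no rule for reads that map to several places, are stated in the sources used here. Reads of near-identical copies may have been split or assigned at random, so single copies are uncertain. Polyadenylated RNA of 9 libraries was measured, and no column belonged to other samples.

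Members and lists were chosen with earlier results of these data known. Samples were grouped by the day and genotype labels. The columns of 1KO+1CI also hold a number with no explanation. Of 15095 gene entries, 21 without a usable symbol were left out. Among repeat copies, 2 member entries share a name and copy number, and 2 copies with the uncertain family label L1? were not used.

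Differences are in log2(FPKM + 0.1), which understates changes of low copies. A family level is log2(mean FPKM over its listed copies + 0.1). A family was called past 0.5 or -0.5 and a copy or gene past 2-fold. Backgrounds are the same shares over all copies, all 371 families with 10 or more copies, or all 15074 genes. Families named were the 5 with most copies, the 3 highest and lowest in WT on day 0, and the 3 highest and lowest differences in each of the 6 main comparisons. Copies named by rule were the 3 highest and lowest differences in each among those at 1 FPKM or more in either library, and the 3 of highest mean level. Genes named were Dnmt1 and the highest and lowest of a list.

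Whole reads were recovered where all 9 values of a copy were multiples of 1 step after division by relative depth, within 0.15 of a step. At most 60 reads were tried for the lowest library, so copies with more reads could be missed. Absolute depth is the depth most often implied by genes with 1 transcript in GENCODE (186 of 766 genes with a step, of 6303 searched). If a step is a read of a pair, counting error is larger than stated. Read ratios have exact 95% intervals for counting error only, which do not allow for the choice of copies by their difference. Alternatives were the pseudocount, the scaling, low-value and read limits, and leaving out the highest copies. Scripts were tested on simulated data. Python 3.11.15, numpy 2.4.6, pandas 2.3.3, scipy 1.17.1 and matplotlib 3.10.9 were used. No significance test was run: each condition has 1 library, and no fit that pools conditions was made.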

Additional observations from a re-analysis of the deposited data

How the results depend on the processing

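With 1 library per condition no library could be left out of a group. No paired analysis was possible because the groups compared share only replicate number 1. Pairing the lines by day gives 3 pairs, for which an exact two-sided sign-flip test cannot go below p = 0.25, and that test was not run. Of 72 alternative values of the median differences between lines, 39 lay within the interval of the median over copies, and 16 had the opposite sign, most of them where the median was near 0. Limits on recovered reads and all alternatives for the day comparisons were added after seeing the data. For 1KO against WT on day 0 (-0.27), a pseudocount of 1 gave -0.10, of 0.01 -0.35, scaling by repeat copies -0.14, an equal gene sum -0.30, means of at least 10, 20 and 50 reads -0.21, -0.03 and 0.00, and the ratio of mean FPKM changed sign to 0.03. On day 2 (0.01) the read limits gave -0.07, -0.08 and -0.12, and on day 4 (0.03) 20 and 50 reads gave -0.05 and -0.18. For 1KO+1CI against 1KO on day 0 (0.18), pseudocounts of 1 and 0.01 gave 0.08 and 0.23, scaling by genes, repeat copies and gene sum 0.21, 0.06 and 0.24, the ratio of means 0.05, the mean without the top 1% of copies 0.22, and 20 and 50 reads 0.10 and 0.05. On day 2 (-0.02) the values that moved or changed sign were -0.03 to 0.03, with -0.00 for a pseudocount of 1, -0.02 for a pseudocount of 0.01, for copies of at least 1 FPKM and for at least 10 or 20 reads, -0.03 for scaling by genes, 0.03 for the ratio of means, and 0.00 for the mean without the top 1% and for 50 reads. On day 4 (-0.06) the ratio of means gave 0.02 and 50 reads 0.09.

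Of 84 alternative family counts, 54 stayed within 1.5 times and 30 did not. Of families higher and lower in 1KO than in WT on day 0 (2 and 9), there were 1 and 2 with a pseudocount of 1, 0 and 19 by the median over copies, 1 and 4 among families of 20 or more copies, and 0 higher without the highest copy. On day 2 (0 and 3) there were 4 higher by the median over copies, 1 higher without the highest copy, and 0 lower with a pseudocount of 1 or 20 or more copies. On day 4 (1 and 1) there were 4 and 2 by the median and 2 and 0 without the highest copy, and 0 lower with 20 or more copies. In 1KO+1CI against 1KO on day 0 (4 and 0), 0 were higher with a pseudocount of 1, 11 higher and 1 lower by the median, 1 higher without the highest copy or with 20 or more copies, and 1 and 1 with scaling by repeat copies. On day 2 (1 and 0) there were 2 and 3 by the median, and 1 lower without the highest copy. On day 4 (0 and 1) there were 6 and 6 by the median, and 0 lower with a pseudocount of 1 or scaling by repeat copies. Between days, 3 of 18 alternative medians had the opposite sign, all 3 with scaling by repeat copies, which puts the median repeat copy near 0. For day 2 against day 0 (0.12, 0.37 and 0.15 in WT, 1KO and 1KO+1CI), scaling by repeat copies gave -0.05, 0.03 and -0.03, and 20 reads or more gave 0.32, 0.33 and 0.29, with 0.10 in 1KO+1CI for scaling by genes. For day 4 against day 2 (-0.30, -0.22 and -0.29), scaling by repeat copies gave -0.01, 0.04 and -0.01, and 20 reads or more gave -0.36 in 1KO and -0.38 in 1KO+1CI. Scaled by repeat copies, 3, 3 and 4 families were higher on day 2 than on day 0 (12, 14 and 8), and 3, 3 and 3 were lower on day 4 than on day 2 (17, 10 and 13). The causes of these shifts were not tested.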
